A study of Lemna gibba with 6 samples.

Results

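Starch synthesis in plastids begins with ADP-glucose pyrophosphorylase (AGPase, glucose-1-phosphate adenylyltransferase), which forms ADP-glucose from glucose 1-phosphate and ATP. Among the 16340 genes of the deposited expression table of *Lemna gibba*, 5 genes carry the name of an AGPase subunit and 2 carry the name of the glucose-6-phosphate/phosphate translocator (GPT), which brings glucose 6-phosphate into plastids in exchange for phosphate. These 7 genes were taken by enzyme name from the study's assignment of genes to reactions, each counted once, and all 7 had a row in the table. *L. gibba*, a duckweed, is a small floating aquatic plant whose leaf-like bodies are called fronds. Expression was measured by RNA-seq of polyA-selected RNA from whole fronds, with 3 libraries under the organic nitrogen (ONS) condition and 3 under the inorganic nitrogen (INS) condition. The ONS medium held 6.85 mM glutamine as its nitrogen source, and the INS medium held 12.4 mM nitrate and 1.3 mM ammonium. Both media contained 5 g/L glucose, and both conditions used the same clone, 7742a, so that all values describe a single genotype grown with sugar in the medium.

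AGPase of plants is an assembly of small and large subunits. The small subunit carries most of the catalytic activity, while the large subunits mainly modulate its response to 3-phosphoglycerate, which activates the enzyme, and to phosphate, which inhibits it. In *Arabidopsis*, a main small subunit is combined with large subunits that differ between leaves and sink tissues. GPT is best known from plastids that import carbon, such as those of seeds and roots, where the imported glucose 6-phosphate enters starch synthesis or the oxidative pentose phosphate pathway of the plastid. Leaf chloroplasts usually make hexose phosphates from their own triose phosphates, and in *Arabidopsis* leaves a GPT gene is known to respond to sugar feeding.

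The table gives a mean of normalized reads for each condition and no value per library. Normalized reads are read counts divided by the size factor of the library, not by transcript length, so levels were compared between the conditions and not between genes. Each mean is a weighted sum of the whole reads of 3 libraries, and below a mean of 1000 these reads could be separated again for 11289 genes (69.1% of the table). Estimated depths were 14443663 to 35807286 reads under ONS and 8324792 to 25856532 reads under INS. The separated libraries were ordered by depth within a condition and not matched to replicate numbers. As a check of green tissue, 15 of 16 genes for RuBisCO, the enzyme that fixes CO2, were in the table. Their means were up to 118332 under ONS and 95978 under INS. For the 14 with a mean of at least 10, log2 ratios of the ONS over the INS mean lay between −2.16 and 1.05. The median was 0.35, so these genes did not move together.

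The 7 genes were selected on names, but the group was put together with the ratios of LEMGIv51_A5_017841_1, a large subunit, and LEMGIv51_A5_001996_1, a GPT, already known. All ONS over INS ratios of these genes are therefore a description, with no test. These 2 genes were the members with the widest ratios, in opposite directions: the large subunit was 3.05-fold higher and the GPT 3.59-fold lower under ONS than under INS. In RNA of whole fronds, fewer cells that express a gene and less of its RNA per cell cannot be told apart. The other 5 members lay between 0.820 and 1.30 times their INS mean. Among the 6 members with a mean of at least 10, 1 was more than 2-fold higher under ONS, against a background of 3.23% of 15249 genes, and 1 was more than 2-fold lower, against 7.39%. Their median log2 ratio was 0.24, and that of all 15249 genes was 0.04.

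**Figure D1:**
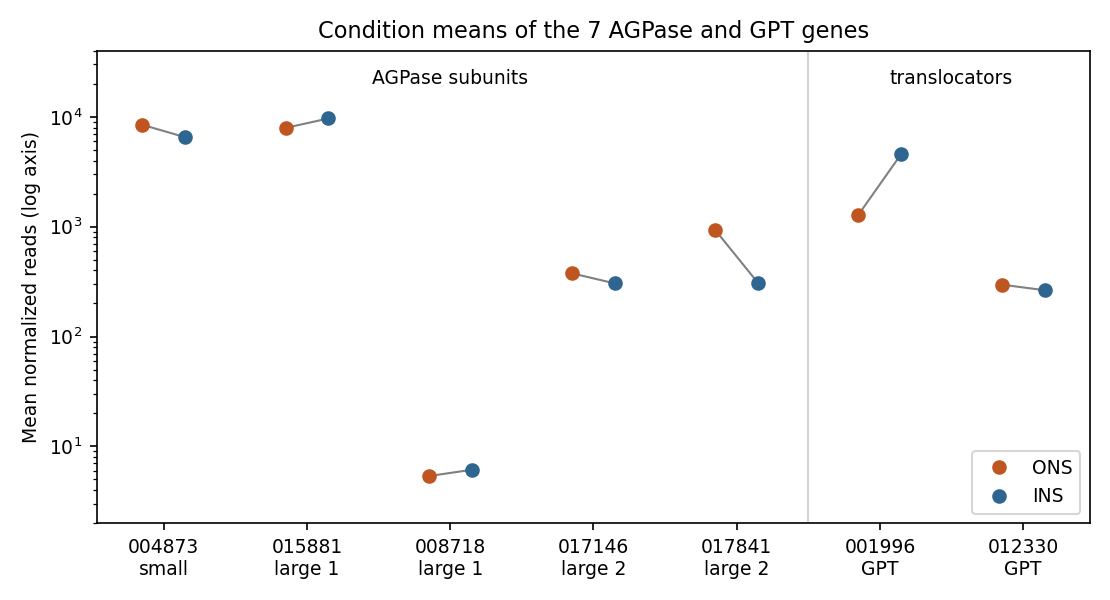
Mean normalized reads of the 7 genes (log axis) under ONS (left point of each pair) and INS (right point), with the last number of each gene ID and the kind of subunit or translocator below. The pairs of LEMGIv51_A5_017841_1 (933 under ONS, 306 under INS) and LEMGIv51_A5_001996_1 (1285 under ONS, 4616 under INS) have the steepest lines, and those of the other 5 genes are nearly level.

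The small subunit is encoded by a single gene in the set, LEMGIv51_A5_004873_1, annotated from a *Brassica* protein. It had a mean of 8468 normalized reads under ONS and 6528 under INS, which is 1.30-fold higher under ONS (log2 ratio 0.38). Of the 728 genes within 2-fold of its mean, itself included, 140 (19.2%) were higher under ONS by at least as much. A ratio of this size was thus common at this level.

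Of the 4 large subunit genes, LEMGIv51_A5_015881_1, annotated as large subunit 1 from *Arabidopsis*, gave most of the reads. Its mean was 7934 under ONS and 9679 under INS, a ratio of 0.820 (log2 ratio −0.29), opposite in direction to the small subunit. Among the 614 genes within 2-fold of its mean, itself included, 122 (19.9%) were at least as much lower under ONS. Both genes had means above the limit for separating reads, and their ratios have no error between libraries.

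A further gene with the annotation of large subunit 1, LEMGIv51_A5_008718_1, was close to silent. It had 10, 3 and 6 reads in the ONS libraries, from the deepest to the shallowest, and 8, 10 and 2 reads in the INS libraries. After normalization these were 5.09, 3.43 and 7.58 under ONS and 5.77, 8.12 and 4.48 under INS, and the conditions overlapped. The means were 5.37 ± 2.08 under ONS and 6.12 ± 1.84 under INS (SD, n = 3 each). Its log2 ratio of −0.19 turned to 0.05 without the middle ONS library and to 0.07 without the middle INS library, so no direction could be given at this depth.

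The remaining large subunits, LEMGIv51_A5_017841_1 and LEMGIv51_A5_017146_1, both carry the annotation of large subunit 2 from *Arabidopsis*. The first had a mean of 933 normalized reads under ONS and 306 under INS, and the second a mean of 377 under ONS and 304 under INS. Genes with similar sequences can exchange reads in mapping, and how reads that fit several transcripts were handled is not given in the sources used here.

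For LEMGIv51_A5_017841_1, the INS mean came from 327, 447 and 143 reads, or 236, 363 and 320 normalized reads. The ONS mean could arise from either of 2 sets of reads. They are listed with the narrower spread between ONS libraries first, and the order gives no preference. The first holds 1811, 777 and 783 reads, which are 922, 889 and 989 normalized reads with a mean of 933 ± 50.6, against 306 ± 64.7 under INS (SD, n = 3 each). The second holds 3390, 584 and 321 reads, which are 1727, 668 and 405 normalized reads with an SD of 699. Which set was sequenced cannot be told from the printed means. In both, every ONS library lay above the highest INS library, at 363 normalized reads. The gene was chosen with its ratio known, and the share of all genes without overlap was not counted, so nothing is read from this.

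The ratio of the means, 3.05, holds for either set and corresponds to a log2 ratio of 1.61. On the log2 scale with a pseudocount of 1, the limma estimate was 1.63 with a standard error of 0.22 for the first set, and 1.36 with a standard error of 0.43 for the second. In the second set the deepest ONS library carried much of the difference, and the log2 ratio without it was 0.81. The log2 ratio of the means was above that of 99.4% of the 15249 genes with a mean of at least 10. Among 4956 genes within 2-fold of its mean, itself included, 10 (0.202%) were as much higher under ONS. The gene was chosen with its ratio known, so these shares describe its place and are no test.

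LEMGIv51_A5_017146_1 had 754, 347 and 276 reads in the ONS libraries and 222, 464 and 168 reads in the INS libraries. Normalized, these were 384, 397 and 348 under ONS, with a mean of 377 ± 25.2, and 160, 377 and 376 under INS, with a mean of 304 ± 125 (SD, n = 3 each). The conditions overlapped, since the middle and the shallowest INS library lay within the range of the ONS libraries and the deepest one lay below it. The log2 ratio of the means was 0.31, and the limma estimate was 0.41 with a standard error of 0.32. Without the deepest INS library the log2 ratio was 0.00021.

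**Figure D2:**
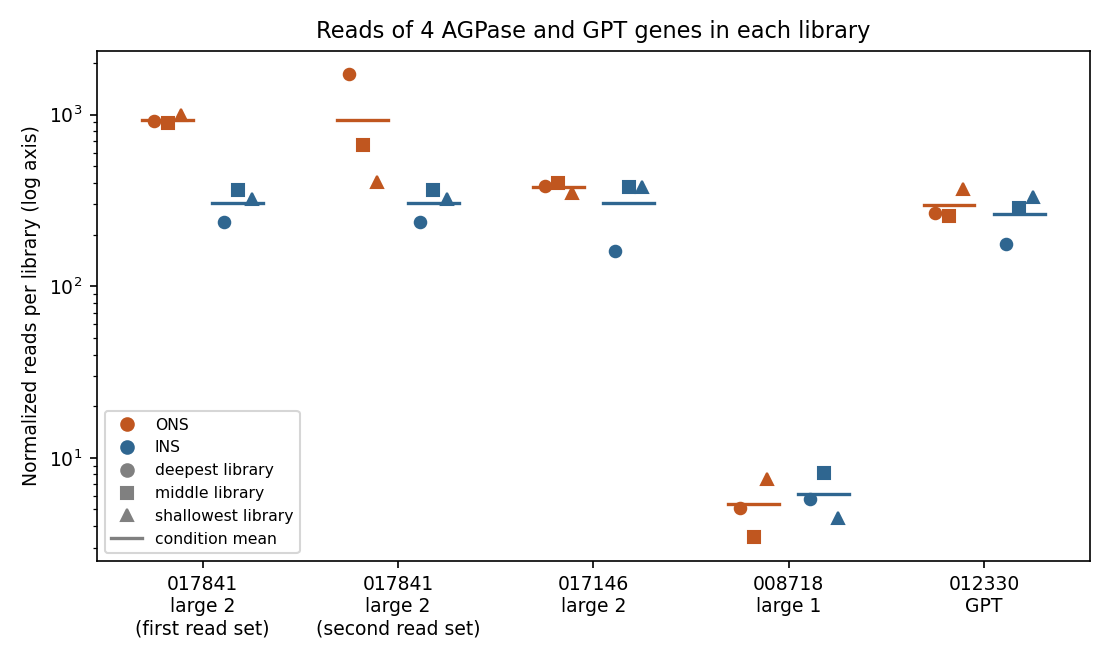
Normalized reads per library (log axis) of the 4 genes whose means could be separated, with ONS left and INS right of each tick, symbols for the depth order of the libraries and bars for the condition means. Both read sets of LEMGIv51_A5_017841_1 are drawn, and in each the ONS points lie above the INS points, whereas the points of LEMGIv51_A5_017146_1, LEMGIv51_A5_008718_1 and LEMGIv51_A5_012330_1 overlap. LEMGIv51_A5_017841_1 was chosen with its ratio known, and the share of all genes without overlap was not counted.

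Because both large subunit 2 genes were counted in the same libraries, their ratio does not depend on the size factors. For the first read set, LEMGIv51_A5_017841_1 had 2.40, 2.24 and 2.84 reads per read of LEMGIv51_A5_017146_1 in the ONS libraries, against 1.47, 0.963 and 0.851 in the INS libraries. The conditions did not overlap, for a pair that holds the gene chosen with its ratio known. The share of all gene pairs without overlap was not counted, so nothing is read from this. For the second read set the ONS ratios were 4.50, 1.68 and 1.16, and the last of these lay below the highest INS ratio.

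Summed over its genes, AGPase differed little between the conditions, with 17718 normalized reads under ONS and 16824 under INS (ratio 1.05). The make-up of the sum differed more by the means, which was not tested. All large subunits together had 9250 normalized reads under ONS and 10296 under INS, while the small subunit was higher under ONS, and 1.09 reads of large subunits were found per read of the small subunit under ONS, against 1.58 under INS. That ratio rests mostly on LEMGIv51_A5_004873_1 and LEMGIv51_A5_015881_1. Both have no error between libraries, and ratios as wide as theirs were common at their levels. LEMGIv51_A5_015881_1 gave 85.8% of the large subunit reads under ONS and 94.0% under INS. The share of LEMGIv51_A5_017841_1 was 10.1% under ONS and 2.98% under INS, and that of LEMGIv51_A5_017146_1 was 4.07% under ONS and 2.96% under INS. LEMGIv51_A5_008718_1 gave 0.0580% under ONS and 0.0595% under INS. The difference in the share of LEMGIv51_A5_017841_1 mostly restates its ratio, with which it was chosen. The shares are not per transcript length, so they describe how the mixture of reads differed between conditions and not the proportions of the proteins.

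**Figure D3:**
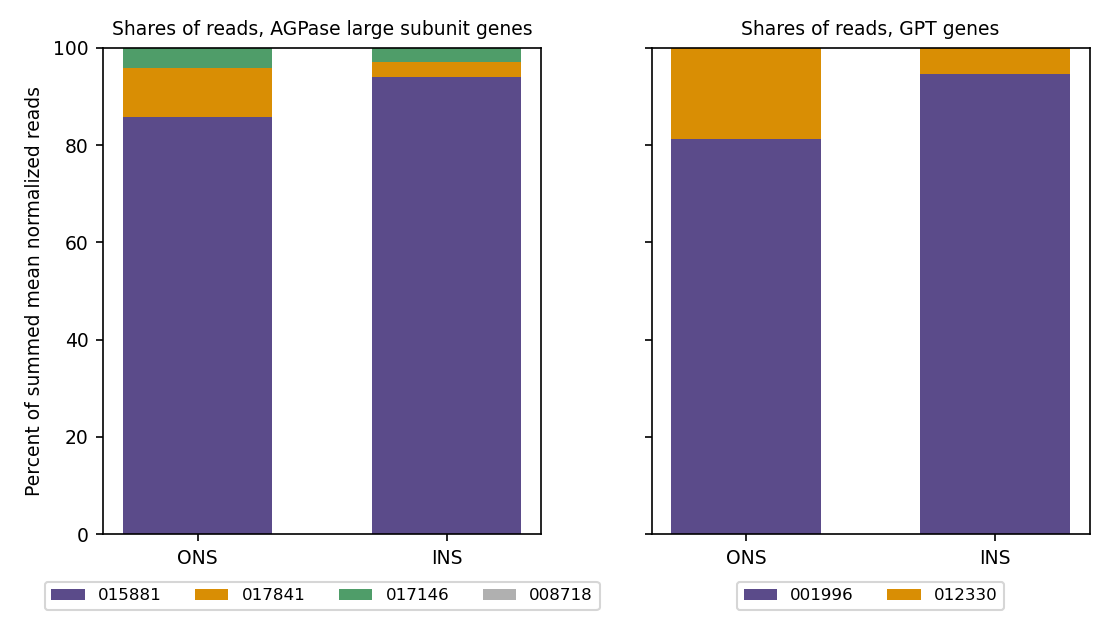
Shares of the summed mean normalized reads (percent) that each gene gave, for the 4 AGPase large subunit genes and the 2 GPT genes, under ONS (left bar) and INS (right bar). The share of LEMGIv51_A5_017841_1 was 10.1% under ONS and 2.98% under INS, and that of LEMGIv51_A5_012330_1 was 18.8% under ONS and 5.41% under INS. The share of LEMGIv51_A5_008718_1 is too thin to be seen. These differences in shares mostly restate the ratios of LEMGIv51_A5_017841_1 and LEMGIv51_A5_001996_1, which were chosen with their ratios known.

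Both translocator genes are annotated as GPT1 from *Arabidopsis*, but their levels behaved differently. LEMGIv51_A5_001996_1 had a mean of 1285 normalized reads under ONS and 4616 under INS, 3.59-fold lower under ONS (log2 ratio −1.84). Of the 15249 genes with a mean of at least 10, 2.72% had a lower log2 ratio. Among 2029 genes within 2-fold of its mean, itself included, 29 (1.43%) were as much lower under ONS. This gene too was chosen with its ratio known, so these shares are no test. Its reads per library could not be separated, since 31 sets of reads fit the ONS mean and 237 the INS mean, so the difference has no error between libraries.

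The other GPT gene, LEMGIv51_A5_012330_1, had 525, 225 and 290 reads in the ONS libraries and 245, 350 and 148 reads in the INS libraries. These were 267, 257 and 366 normalized reads under ONS, with a mean of 297 ± 60.1, and 177, 284 and 332 under INS, with a mean of 264 ± 79.3 (SD, n = 3 each). The conditions overlapped between 257 and 332 normalized reads. The limma estimate of the log2 difference was 0.20 with a standard error of 0.29. The log2 ratio of the means, 0.17, became −0.05 without the deepest INS library and −0.01 without the shallowest ONS library.

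Together the GPT genes had 1582 normalized reads under ONS and 4880 under INS, 3.08-fold lower under ONS. Since LEMGIv51_A5_001996_1 was lower and LEMGIv51_A5_012330_1 nearly level, the share of LEMGIv51_A5_012330_1 in GPT reads was 18.8% under ONS and 5.41% under INS. Per read of GPT, 11.2 reads of AGPase were found under ONS and 3.45 under INS. LEMGIv51_A5_001996_1 gave 81.2% of the GPT reads under ONS and 94.6% under INS. It was chosen with its ratio known and has no error between libraries. The GPT sum, the shares and this ratio mostly restate its change and are no separate result. The deepest INS library was the lowest of the INS libraries for LEMGIv51_A5_017841_1, LEMGIv51_A5_017146_1 and LEMGIv51_A5_012330_1, and its part in their ratios is given by the values without it: for LEMGIv51_A5_017841_1 the log2 ratio was then 1.45.

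**Figure D4:**
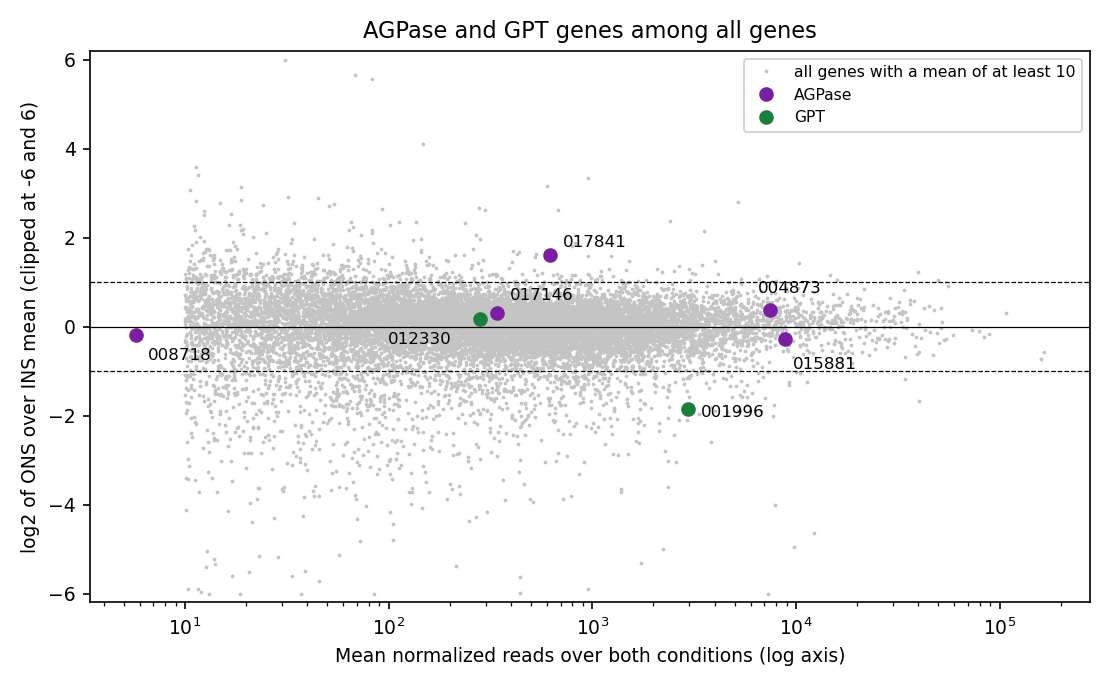
Log2 ratio of the ONS over the INS mean against the mean over both conditions (log axis) for all genes with at least 10 mean reads that are not listed at 0 in either condition (grey) and for the AGPase and GPT genes (coloured, with the last number of each ID). Dashed lines mark 2-fold. LEMGIv51_A5_017841_1 lies at 1.61 and LEMGIv51_A5_001996_1 at −1.84, and the other 5 genes lie inside the band.

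For comparison with a test, the separated genes with a mean of at least 10 were fitted with limma, and calls required an adjusted p no higher than 0.05 together with a ratio beyond 4-fold. Of 10198 genes tested, 31 (0.304%) were called higher and 251 (2.46%) lower under ONS. The 2 members in this fit, LEMGIv51_A5_017146_1 and LEMGIv51_A5_012330_1, were not called. LEMGIv51_A5_017841_1, with its pair of read sets, stayed outside the fit, and no member reached a 4-fold ratio.

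The steps around AGPase and GPT were examined in 7 lists of 39 genes, all of which had a row in the table. Of these, 38 had a mean of at least 10, with a median log2 ratio of 0.09. Under ONS, 3 of the 38 were more than 2-fold higher, against 3.23% of 15249 genes, and 2 were more than 2-fold lower, against 7.39%. The limma fit held only the 16 list genes with separated reads, and the rest could not be called. Among the rest were LEMGIv51_A5_005055_1 and LEMGIv51_A5_015264_1, the 2 genes more than 2-fold lower. Of the 16 genes in the fit, 0 were called. An unadjusted p under 0.05 was found in the limma fit for 3 of the 16 and for 1902 of all 10198 genes tested (18.7%). The 3 are thus a share near the background. Without the fold criterion, 1 of the 16 genes passed, while 96 genes passed as higher and 547 as lower among all 10198 tested. Nothing is read from this count. The list gene that passed was LEMGIv51_A5_018125_1, annotated as the sucrose transport protein SUT2 of *Oryza*. It had 48.9 normalized reads under ONS and 18.3 under INS (limma log2 difference 1.38, standard error 0.36, adjusted p = 0.0478). This gene was singled out after its values were seen.

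Substrate for AGPase comes through phosphoglucomutase, which interconverts glucose 6-phosphate and glucose 1-phosphate, and glucose-6-phosphate isomerase, which links glucose 6-phosphate to fructose 6-phosphate. None of the 5 genes of this list differed by 2-fold, and their median log2 ratio was 0.11. The widest ratios were those of LEMGIv51_A5_009447_1, a cytosolic isomerase (392 under ONS, 274 under INS, log2 ratio 0.52), and LEMGIv51_A5_019579_1, a cytoplasmic phosphoglucomutase (2852 under ONS, 2137 under INS, log2 ratio 0.42). The chloroplastic forms are named here with their values known. Isomerase LEMGIv51_A5_000150_1 had 3173 under ONS and 4130 under INS (log2 ratio −0.38). Phosphoglucomutase LEMGIv51_A5_006415_1 had 1841 under ONS and 1701 under INS (log2 ratio 0.11). Glucose 1-phosphate is also used by UTP-glucose-1-phosphate uridylyltransferase, which forms UDP-glucose for sucrose and cell wall synthesis. Of its 2 genes, LEMGIv51_A5_017582_1 had 939.9 normalized reads under ONS and 458 under INS (log2 ratio 1.04), and LEMGIv51_A5_014135_1 had 5076 under ONS and 4172 under INS (log2 ratio 0.28).

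Upstream, hexokinase and fructokinase phosphorylate the sugars that enter from the medium or from sucrose. The 11 genes of this list lay between −0.67 and 0.79 on the log2 scale, with a median of 0.20. The ends of this range were LEMGIv51_A5_008107_1, a hexokinase with 552 normalized reads under ONS and 876 under INS, and LEMGIv51_A5_016795_1, a fructokinase with 849 under ONS and 492 under INS. For the hexokinase the limma log2 difference was −0.63 with a standard error of 0.26 (adjusted p = 0.227). Among the sugar transport genes with a mean of at least 50, the widest ratios belonged to LEMGIv51_A5_011977_1, named after the GDP-mannose transporter GONST3 (199 under ONS, 243 under INS), and LEMGIv51_A5_013411_1, named after a monosaccharide transporter of *Arabidopsis* (1059 under ONS, 911 under INS).

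Other transporters of the plastid envelope did not show the ratio of LEMGIv51_A5_001996_1. The triose phosphate/phosphate translocator LEMGIv51_A5_021619_1, which exports triose phosphates from chloroplasts, had 10215 normalized reads under ONS and 7899 under INS (log2 ratio 0.37). The phosphoenolpyruvate/phosphate translocator LEMGIv51_A5_011844_1, which imports phosphoenolpyruvate into plastids, had 8930 under ONS and 6559 under INS (log2 ratio 0.45). These 3 translocators all had means above the limit for separation, so the difference between them could not be tested here. The plastid route from triose phosphates to hexose phosphates was nearly level, with all 7 genes between −0.18 and 0.18 on the log2 scale. Its widest ratios were both aldolases, LEMGIv51_A5_001529_1 with 55390 normalized reads under ONS and 62765 under INS, and LEMGIv51_A5_011353_1 with 596 under ONS and 526 under INS.

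Glucose 6-phosphate in the plastid can also enter the oxidative pentose phosphate pathway, which forms NADPH and pentose phosphates. Of its 7 genes, 1 was more than 2-fold higher under ONS, against 3.23% of 15249 genes. A further 2 were more than 2-fold lower, against 7.39%. LEMGIv51_A5_015264_1, a chloroplastic glucose-6-phosphate dehydrogenase, had 1350 normalized reads under ONS and 4494 under INS (log2 ratio −1.74). LEMGIv51_A5_005055_1, a chloroplastic phosphogluconate dehydrogenase, had 134 under ONS and 4299 under INS (log2 ratio −5.00). The first of these ratios is close to the −1.84 of the translocator LEMGIv51_A5_001996_1. None of these 3 genes could be separated into reads per library in both conditions, and the median log2 ratio of the list was 0.06. The glucose-6-phosphate dehydrogenase genes LEMGIv51_A5_008548_1 and LEMGIv51_A5_008438_1 had log2 ratios of −0.07 and 0.32, and were named here with their values known. Glucose-6-phosphate dehydrogenase LEMGIv51_A5_008439_1 had 177 normalized reads under ONS and 84.4 under INS (limma log2 difference 1.06, standard error 0.45, adjusted p = 0.240), and was named here after its values were seen.

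**Figure D5:**
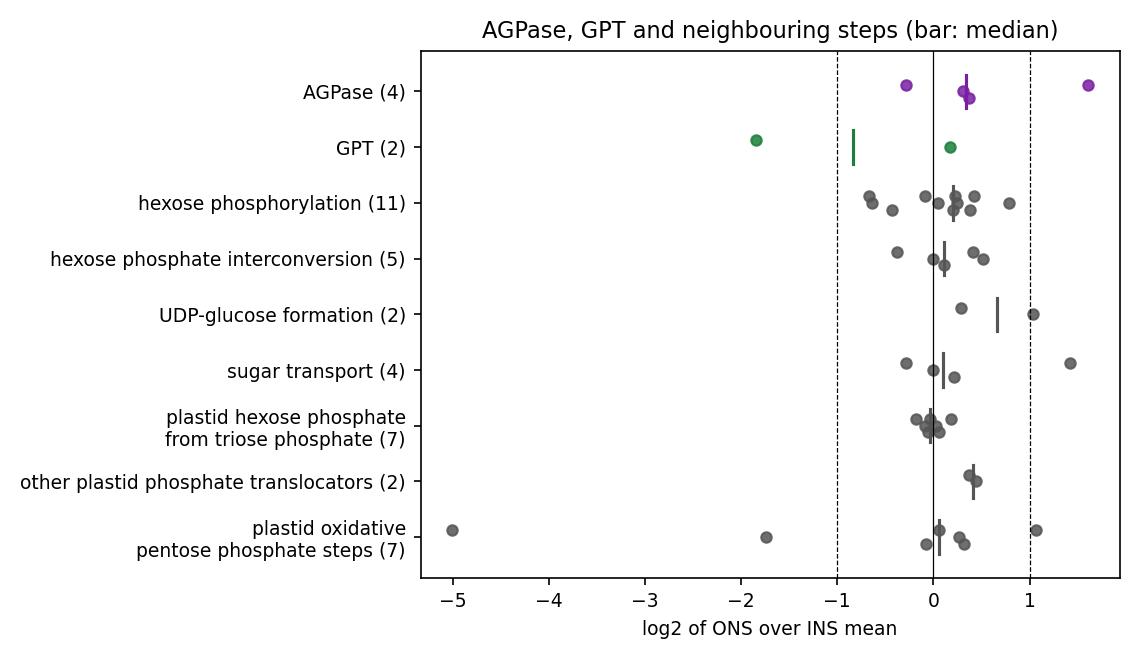
Log2 ratio of the ONS over the INS mean for each gene with a mean of at least 10 (points) of AGPase, GPT and the 7 lists of neighbouring steps, with the number of genes in parentheses, the median as a bar and dashed lines at 2-fold. Most points lie inside the dashed lines, and the points at −5.00 and −1.74 are genes of the plastid oxidative pentose phosphate steps.

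Across the 6 libraries, the genes of the reaction network with the most similar pattern were found for each separated member by Pearson's r of log2(normalized reads + 1). The libraries share their depth and condition, and r over 6 points among 74 or 75 genes is given as a description only. LEMGIv51_A5_017146_1 was most like phosphoserine phosphatase LEMGIv51_A5_000641_1 (r = 0.936), GMP synthase LEMGIv51_A5_021376_1 (r = 0.920) and 6-phosphogluconolactonase LEMGIv51_A5_021962_1 (r = 0.862). All of these were lowest in the deepest INS library, as LEMGIv51_A5_017146_1 was. LEMGIv51_A5_012330_1 was most like glyceraldehyde-3-phosphate dehydrogenase LEMGIv51_A5_005349_1 (r = 0.977), aspartate transaminase LEMGIv51_A5_020786_1 (r = 0.955) and NADP-dependent isocitrate dehydrogenase LEMGIv51_A5_009044_1 (r = 0.953). These were highest in the shallowest ONS library and lowest in the deepest INS library, the same as LEMGIv51_A5_012330_1. Both groups of genes were chosen by r over the same 6 libraries, so their shared extremes come with that choice.

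For LEMGIv51_A5_017841_1 the closest genes depended on the read set. With the first set they were the NADP-dependent malic enzyme LEMGIv51_A5_001160_1 (r = 0.982), alanine-glyoxylate transaminase LEMGIv51_A5_007363_1 (r = 0.965) and aminomethyltransferase LEMGIv51_A5_009113_1 (r = 0.879), a part of the glycine cleavage system. The malic enzyme had 344, 308 and 384 normalized reads under ONS and 179, 201 and 202 under INS. With the second set they were succinate-semialdehyde dehydrogenase LEMGIv51_A5_017241_1 (r = 0.766), again LEMGIv51_A5_007363_1 (r = 0.735) and ribose-5-phosphate isomerase LEMGIv51_A5_018279_1 (r = 0.691). The nearly silent LEMGIv51_A5_008718_1 was most like a dihydrolipoyllysine acetyltransferase, LEMGIv51_A5_009021_1 (r = 0.860), an aldolase, LEMGIv51_A5_011251_1 (r = 0.856), and a phosphofructokinase, LEMGIv51_A5_004972_1 (r = 0.826), with 2 to 10 reads of its own per library behind these values.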

How the data were processed

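PolyA-selected RNA of *L. gibba* fronds was sequenced by the authors from directional libraries as 101 bp read pairs, and reads were mapped with Bowtie to the 21830 predicted transcripts of draft genome v0.5.1. The authors normalized read counts with DESeq size factors. The versions of both tools, as the authors ran them, are not given in the sources used here. The deposited signal is the mean of normalized reads per gene, over all libraries and per condition. The deposited fold changes, p-values, adjusted p-values and calls are the authors' own comparison and were not used.

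Conditions were taken from the sample titles. Members and lists were chosen with earlier results of these data known. Members and lists follow the enzyme names and reactions of the study's reaction table, whose values were not used. Of its 309 genes, 280 have a row. For means under 1000, whole reads per library (n = 3 per condition) were searched that give the printed condition means within rounding, and a gene was kept where a single set fits. This gave reads for 11289 of 12279 genes searched, and 0 had no solution. Depths were estimated from the weights of single reads and the summed means. The test across genes was limma 3.58.1 in R 4.3.3, with its trend option, a two-sided p and Benjamini-Hochberg adjustment. It took log2(x + 1) of the normalized reads x of separated genes whose mean was 10 or more, and replaced a count model because only part of the table could be separated. This scale understates changes of genes with few reads. The separation and the limma step were each tested on simulated data. As a further check of the separation, all of 300 means per condition and size class had a solution, whereas the same means moved slightly off had one in 0% of cases below 300, and in 31.3% (ONS) and 14.3% (INS) from 300 to 1000, where the check is weaker. The series text calls the samples biological replicates, and p-values measure the spread between them. Genes were named by rule: all members, called genes and the 2 with the widest ratio per list (mean of at least 50), and the 3 genes most like each separated member, with exceptions marked. Alternatives were other pseudocounts, filters, scalings, thresholds and leaving out libraries. Other steps used Python 3.11.15, numpy 2.4.6, pandas 2.3.3, numba 0.67.0 and matplotlib 3.10.9.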

Additional observations from a re-analysis of the deposited data

How the results depend on the processing

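Of 123 recomputed values, 108 stayed within the spread between libraries, the counting interval or 1.5 times a count. This is easily met where the spread is wide. Values of opposite sign for LEMGIv51_A5_008718_1 and LEMGIv51_A5_012330_1, and 0.00021 for LEMGIv51_A5_017146_1, count among the 108. Equal summed means gave log2 ratios of 0.41 for LEMGIv51_A5_004873_1 and −0.25 for LEMGIv51_A5_015881_1, and centring on the median gene gave 0.35 and −0.32. Leaving out each library in turn gave −0.52 to 0.07 for LEMGIv51_A5_008718_1, −0.05 to 0.37 for LEMGIv51_A5_012330_1 and 0.00021 to 0.49 for LEMGIv51_A5_017146_1. For LEMGIv51_A5_017841_1 with its first read set, it gave 1.45 to 1.75. The second read set of LEMGIv51_A5_017841_1 fits the printed means as the first does, and its use in this check was added after seeing the data. Leaving out each library with the second set gave 0.81 to 1.97, with 0.81 without the deepest ONS library and 1.97 without the shallowest. The log2 change of the ratio of both large subunit 2 genes was 1.19, or 1.16 with the second set, and 1.03 to 1.46 with each library left out (0.38 to 1.495 with the second set, lowest without the deepest ONS library). Over all genes, limma called 31 higher and 251 lower. A pseudocount of 5 gave 18 higher, no fold threshold 96 higher and 547 lower, a 2-fold threshold 91 higher and 517 lower, and leaving out each library 20 to 39 higher and 199 to 267 lower, with 20 higher without the middle ONS library. Among the pathway genes that could be fitted, 1 was called higher without a fold threshold or with 2-fold, and 0 otherwise. No paired analysis was possible because the separated libraries could not be matched to replicate numbers. Means above 1000 have no error, which limits LEMGIv51_A5_004873_1, LEMGIv51_A5_015881_1 and LEMGIv51_A5_001996_1.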
